A study of Mus musculus with 56 samples.

Results

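The difference between the wheel response of female and of male control mice was measured gene by gene in the gastrocnemius, the main calf muscle. For each gene the wheel response is the log2 level in mice with a running wheel minus that in mice with a locked wheel, and the difference is the female response minus the male response. A positive difference means that running moved the gene upward in females relative to males. All autosomal genes entered by the rule: 12817 of the 14975 autosomal genes listed had enough counts to be tested, out of 15539 genes listed in all. The 28 control mice formed 4 groups of 7, namely females with a locked wheel (FC), females with a running wheel (FCE), males with a locked wheel (MC) and males with a running wheel (MCE). They are a subset of 56 libraries in the series, of which the other 28 came from HuR m-/- mice in the same 4 arrangements. HuR m-/- mice are described as lacking the RNA-binding protein HuR, encoded by Elavl1, in skeletal muscle through a Cre recombinase under the Myl1 promoter, which is active in muscle fibres, and the controls are described as HuR fl/fl littermates without Cre, all on a C57Bl/6 background and fed the same chow. The labels place the wheel between 10 and 20 weeks of age and give the age at sampling as 5 months. Running distance was not used here.

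Skeletal muscle adapts to voluntary running mainly by raising oxidative enzymes and capillary supply and by a shift from the fastest towards more oxidative fibre types, and calf muscle of mice is dominated by fast fibres. Contraction is started by excitation-contraction coupling, in which the voltage sensor of the transverse tubule opens the ryanodine receptor Ryr1 and the calcium released is pumped back by the SERCA1 pump Atp2a1. Around the fibres, fibroblasts and fibro-adipogenic cells make the collagen-rich matrix, and resident macrophages, blood, nerve and vessel cells add their own RNA to a whole-muscle sample. Muscle also holds a circadian clock whose output genes vary with the time of day and of activity.

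The sequences just before the start sites of 5 genes are shown because these genes stand for the patterns described below: Phkg1 for opposite responses, Rpl34 for the ribosomal protein genes, Ryr1 for the genes that rose in females, Col3a1 for the matrix genes and Hlf for the clock output genes. Each is the 250 bases before the RefSeq start site, build GRCm38.p6, written along the strand of the gene. Capitals mark a CCAAT box, a TATA box with the letters TATAAA or an E-box with the letters CACGTG, on either strand. Rpl34 has 2 start site entries, and the first listed is shown. The positions are chr5:129879089-129879338 on the minus strand for Phkg1, chr3:130730399-130730648 on the minus strand for Rpl34, chr7:29125152-29125401 on the minus strand for Ryr1, chr1:45311288-45311537 on the plus strand for Col3a1 and chr11:90390918-90391167 on the minus strand for Hlf.
Phkg1: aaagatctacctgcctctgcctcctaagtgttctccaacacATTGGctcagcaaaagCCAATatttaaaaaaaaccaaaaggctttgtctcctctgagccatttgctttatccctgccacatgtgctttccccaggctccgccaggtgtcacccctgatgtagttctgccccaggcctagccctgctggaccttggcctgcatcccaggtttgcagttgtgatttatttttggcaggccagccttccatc
Rpl34: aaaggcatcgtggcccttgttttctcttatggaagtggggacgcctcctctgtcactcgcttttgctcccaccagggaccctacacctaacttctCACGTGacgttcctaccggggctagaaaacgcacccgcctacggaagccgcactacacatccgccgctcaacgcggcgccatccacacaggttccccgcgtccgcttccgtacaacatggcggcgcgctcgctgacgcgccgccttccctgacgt
Ryr1: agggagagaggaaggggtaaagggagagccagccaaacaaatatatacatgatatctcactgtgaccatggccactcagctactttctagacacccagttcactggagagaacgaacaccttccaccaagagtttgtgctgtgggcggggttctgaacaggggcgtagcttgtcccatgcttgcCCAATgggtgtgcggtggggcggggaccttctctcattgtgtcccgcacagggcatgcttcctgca
Col3a1: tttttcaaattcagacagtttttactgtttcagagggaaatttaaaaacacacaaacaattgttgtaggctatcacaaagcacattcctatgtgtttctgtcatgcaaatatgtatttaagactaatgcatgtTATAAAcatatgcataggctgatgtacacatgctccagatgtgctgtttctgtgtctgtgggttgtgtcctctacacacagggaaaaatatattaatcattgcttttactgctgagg
Hlf: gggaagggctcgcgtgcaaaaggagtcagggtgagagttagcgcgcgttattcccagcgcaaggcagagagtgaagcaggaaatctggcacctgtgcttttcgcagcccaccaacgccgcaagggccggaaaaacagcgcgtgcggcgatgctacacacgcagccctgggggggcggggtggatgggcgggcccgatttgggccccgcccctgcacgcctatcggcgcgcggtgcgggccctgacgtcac
The Phkg1 window held 2 CCAAT matches, the Ryr1 window held 1 CCAAT match, the Rpl34 window 1 E-box match and the Col3a1 window 1 TATA box match, whereas the Hlf window held none of the 3 motifs. Among 32851 mouse promoter windows of this length, 33.8% held a CCAAT match, 12.4% the TATA box and 6.02% the E-box on either strand. The matches printed do not overlap each other. These matches describe letters in the windows and were not tested for binding.

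The genes with a called wheel response were largely different in female and male controls, but a call in 1 sex alone does not show a sex difference. The difference of wheel responses passed an adjusted p of 0.05 in limma, with Benjamini-Hochberg adjustment over all genes tested, for 1533 of 12817 autosomal genes (12%), of which 821 were positive (6.41%) and 712 negative (5.56%). Within females alone, 1520 genes responded (11.9%), with 779 higher in runners (6.08%) and 741 lower (5.78%). In males 653 genes responded (5.09%), with 257 higher (2.01%) and 396 lower (3.09%). The difference itself was called for 875 of the 1520 female genes (57.6%) and for 362 of the 653 male genes (55.4%). For the rest of them no difference between the sexes was called. Of the 135 genes called in both sexes, 93 moved in opposite directions (0.726% of genes tested) and 42 in the same direction. The difference itself was called for each of the 93 and for 0 of the 42, a split that follows largely from how the classes are defined, since all 3 contrasts use the same mice. Single mice moved the smaller counts: with MC 20, MCE 10 or MCE 25 left out the male count was 385, 343 or 427, and the count of opposite genes was between 39 (without MCE 10) and 176 (without MCE 5). It was also 45 to 60 without FC 12, FC 16, FC 33, FCE 27, MC 20, MCE 13 or MCE 25. The count of 1533 stayed between 1216 and 1747.

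The 1533 genes fell into classes by which wheel response was also called. Only the female response was called for 782 of them, 379 higher and 403 lower in female runners. The male response alone was called for 269, 95 higher and 174 lower in male runners, and 389 had neither response called. Female and male responses had opposite signs for 1447 of the 1533 (94.4%), which selection for a large difference by itself favours, and for 54% of all genes tested. Across all genes tested the responses of the sexes, which share no mice, had a Pearson r of -0.0386 and a Spearman rho of -0.109, given as a description because genes are not independent replicates. The median size of the difference was 0.622 on the log2 scale among called genes and 0.261 among all genes tested.

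**Figure D1:**
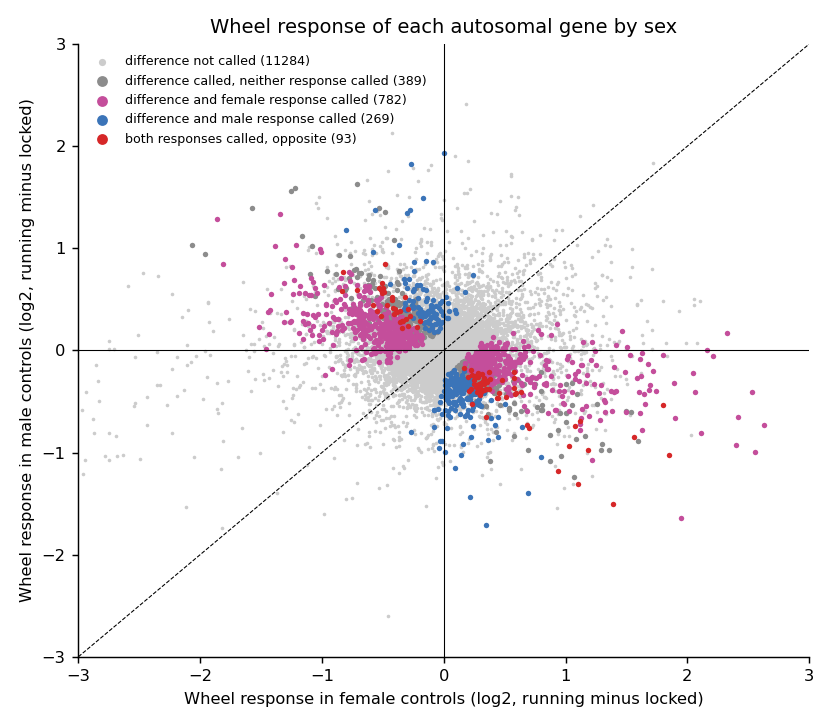
Each point is an autosomal gene, with its wheel response in female controls on the horizontal axis and in male controls on the vertical axis, both as log2 running minus locked, and colours give the class by called responses. The 93 genes called in both sexes with opposite signs lie at the upper left and lower right, and 35 genes lie outside the axes.

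Among protein-coding genes that rose in female runners and fell in male runners, Phkg1, the catalytic subunit of muscle phosphorylase kinase, which switches on glycogen breakdown, had the smallest p. Phkg1 (chr5:129863421-129898549, minus strand, GRCm38) was at 123 to 145 CPM (counts per 1e+06 counts after TMM scaling, with a median of 125) in locked females and at 156 to 184 (median 166) in running females. In males it was at 143 to 181 (median 158) with a locked wheel and at 110 to 130 (median 123) with a running wheel. The locked and running mice did not overlap in either sex, and the groups moved across each other, with running females near locked males and running males near locked females. The female response was 0.37 and the male response -0.38 on the log2 scale, a difference of 0.75 (SE 0.08, adjusted p = 3.298e-07 in limma). The Phkg1 locus contains the separately annotated Gm42790 and overlaps Chchd2 on the same strand and Sumf2 on the other. The Phkg1 window printed above precedes the RefSeq start site but lies inside this longer GENCODE locus.

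Eef1a2, the translation elongation factor form of mature muscle and neurons, showed the same crossing. It was at 545 to 650 CPM (median 579) in locked and 619 to 726 (median 688) in running females, and at 638 to 846 (median 777) in locked and 524 to 619 (median 549) in running males. The male ranges did not overlap and the female ranges overlapped at their edges. The difference was 0.61 (SE 0.09), made of 0.21 in females and -0.40 in males. Luc7l2, a splicing factor associated with the U1 particle, was at 116 to 157 CPM in locked and 166 to 218 in running females, and at 153 to 177 in locked and 129 to 148 in running males. Neither pair of Luc7l2 ranges overlapped, and its responses were 0.58 in females and -0.21 in males. Fry, a large scaffold protein, had responses of 0.58 and -0.27. Of 13 fast-fibre markers 2 belonged to the same class, Myh4 and Atp2a1, as did Camk2b of the calcium-handling list. Myh4, the myosin heavy chain of the fastest fibres, had responses of 0.26 in females and -0.26 in males, Atp2a1 0.29 and -0.35, and Camk2b, a calcium-calmodulin kinase of muscle, 0.28 and -0.37. The levels of Myh4 overlapped between locked and running mice in both sexes, at 18890 to 28610 CPM in locked and 24060 to 30360 in running females, and at 27440 to 34780 and 24570 to 28550 in the males. Myh1 and Myh2, the myosins of the intermediate fast fibres, rose instead in both sexes, with responses of 0.54 and 0.49 for Myh1 and of 0.63 and 0.59 for Myh2, and their differences were not called.

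Unspliced or intronic loci were frequent among the genes that rose in females and fell in males. Of the 61 genes in that class, 47 were protein coding, 8 were annotated as TEC (transcripts still to be experimentally tested), 3 as processed transcripts and 1 each as antisense, lincRNA and sense intronic, while the 32 genes of the reverse class were all protein coding. TEC loci were 321 of the 12817 genes tested. Gm42432, which lies within an intron of Map4 on the same strand, had the smallest p of all genes. It was at 3.58 to 6.46 CPM in locked and 9.63 to 15.7 in running females, and at 9.94 to 13.9 in locked and 4.22 to 7.62 in running males, with no overlap between locked and running mice in either sex. Its difference was 2.16 (SE 0.20, adjusted p = 2.7e-08 in limma), with responses of 1.18 and -0.98. The host gene Map4, a microtubule-binding protein looked up after these values were seen, had a called difference of 0.51.

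Gm42790 within Phkg1 had the same directions as its host, with a difference of 2.12 against 0.75. The hosts of 3 further loci had no called difference. Gm43063, within an intron of the AMP deaminase gene Ampd1, had a difference of 2.40 whereas Ampd1 itself had -0.15, which was not called. Gm43185 overlaps Nexn, an actin-binding protein of the Z-disc, and had a difference of 2.33 against -0.07 for Nexn, which was not called. The locus 9530086O07Rik within Pdzrn3 had 2.87, and Pdzrn3 had 0.20, which was not called. Hosts were chosen for their position. Over all 321 TEC loci tested, 94 had a called difference and each of the 94 was positive, with a median difference of 1.11, and 85 of them lie within an intron of a gene on the same strand. Of 40 sense intronic loci, 8 were called, all positive. Over all genes tested, 12% had a called difference and 6.41% a positive one. Reads of loci within introns on the same strand cannot be told apart from unspliced RNA of their hosts. Whether the authors' counting used the strand is not given in the sources used here. Gm15179 (difference 1.04), which is antisense to the intermediate filament gene Des, therefore cannot be told apart from Des.

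The reverse class of 32 genes, lower in female runners and higher in male runners, held 8 cytosolic ribosomal protein genes. Its smallest p belonged to Rnase4, a secreted ribonuclease whose locus overlaps Ang on the same strand, at 63.7 to 110 CPM in locked and 39.3 to 56.2 in running females and at 32.4 to 61.0 in locked and 43.5 to 87.7 in running males. The female ranges of Rnase4 did not overlap and the male ranges did, and its difference was -1.42 (SE 0.20). Mrc2, a collagen uptake receptor (-1.60), and the surface glycoprotein Thy1 (-1.33) also had larger differences than any ribosomal protein gene of the class. Rpl34, a protein of the large subunit, was at 208 to 333 CPM (median 269) in locked and 163 to 232 (median 184) in running females, and at 174 to 220 (median 196) in locked and 195 to 297 (median 241) in running males. The ranges overlapped in both sexes, and running brought the female median down to about the locked male level. Its difference was -0.85 (SE 0.13), with responses of -0.52 and 0.34. Rpl7 fell from 252 to 295 CPM in locked females to 181 to 236 in running females without overlap, and was at 175 to 209 in locked and 185 to 233 in running males. Of 73 ribosomal protein genes tested, 43 fell and 0 rose in females, 10 rose and 3 fell in males, and the difference was called negative for 40 and positive for 0. Their median response was -0.291 in females and 0.0763 in males, with a median difference of -0.366 beside 0.00164 over all genes tested. Their called share was 54.8%, beside 12% of all genes tested. The 8 called in both sexes with opposite signs were Rpl7, Rpl34, Rps15a, Rpl31, Rpl11, Rps19, Rpl26 and Rpl21. Many of these genes have processed pseudogenes that share their reads, which makes single values uncertain.

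Subunits of the respiratory chain encoded in the nucleus showed a smaller shift of the same sign. Differences were called for 40% of them, beside 12% of all genes tested. Among 75 tested, 17 fell and 3 rose in females, 14 rose and 0 fell in males, and the difference was called negative for 28 and positive for 2, with a median difference of -0.136. Atp5j2, a subunit of ATP synthase, was at 645 to 772 CPM in locked and 531 to 662 in running females, and at 529 to 617 in locked and 607 to 731 in running males. Its ranges overlapped only at their edges in both sexes, and its responses were -0.20 and 0.29. Cox6c, a subunit of cytochrome c oxidase, fell by 0.34 in females, and its male response of 0.06 was not called. The genes of fatty acid uptake and oxidation, by contrast, had called changes of 1 direction in each sex: of 34 tested, 6 rose, 0 fell and 28 were not called in females, and the same numbers held in males, with medians of 0.169 and 0.131. The share that rose was 17.6% in each sex, beside 6.08% of all genes in females and 2.01% in males. Only Acacb, the mitochondrial acetyl-CoA carboxylase that restrains fatty acid import (difference 0.72), and Hadh, a beta-oxidation dehydrogenase (-0.35), had a called difference in that list.

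**Figure D2:**
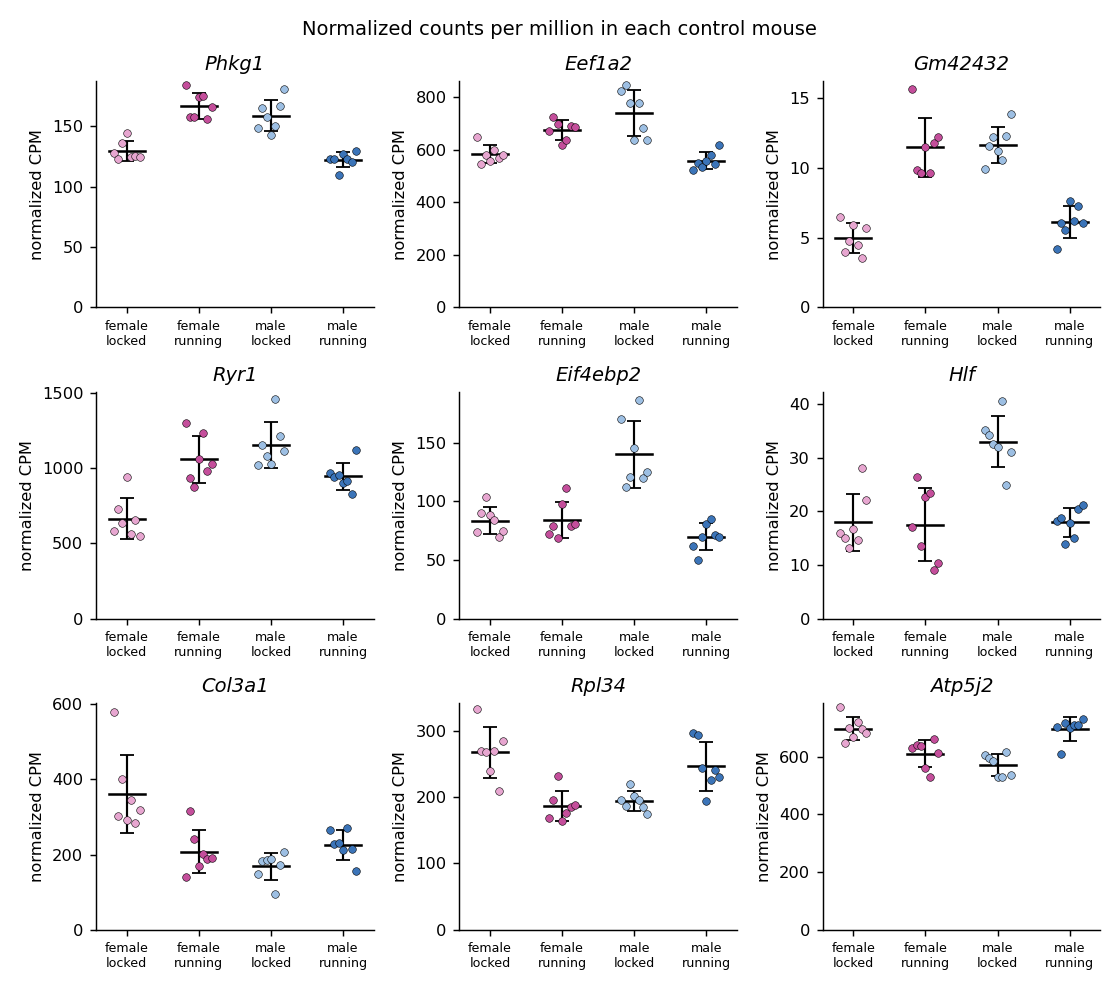
Normalized CPM of 9 genes in each control mouse by group, with points for mice, bars for the group mean and error bars for the SD (n = 7 a group). Phkg1 and Gm42432 cross between the sexes without overlap, Ryr1 and Col3a1 move mainly in females, Eif4ebp2 and Hlf mainly in males, and the ribosomal protein gene Rpl34 and Atp5j2 move in the reverse sense to Phkg1.

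Genes that rose in females with no called male response, among those of smallest p, included Plec, Dgkz, Ryr1, Ubr4 and Adcy9. Ryr1 was at 548 to 940 CPM (median 636) in locked and 870 to 1296 (median 1025) in running females, and at 1022 to 1456 (median 1115) in locked and 827 to 1121 (median 943) in running males. Locked females were the low group, although their highest mouse lay within the range of the female runners, and the male ranges overlapped. The Ryr1 difference was 0.96 (SE 0.14, adjusted p = 4.427e-05 in limma), with 0.68 in females and -0.28 in males (male adjusted p = 0.08149). Plec, the cytoskeletal linker plectin, was at 184 to 230 CPM in locked and 265 to 319 in running females without overlap, and its male response of -0.15 was not called. Dgkz, a diacylglycerol kinase, had a female response of 0.79, Adcy9, an adenylyl cyclase, 0.60, and Ubr4, a ubiquitin ligase, 0.48, each without a called male response. The differences themselves were called for all of these genes.

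In the list of 28 excitation-contraction coupling and calcium-handling genes, 8 rose and 1 fell in females, 1 rose and 3 fell in males, and the difference was positive for 9 and negative for 0. The called share was 32.1%, beside 12% of all genes tested. The median response was 0.14 in females and -0.159 in males, with a median difference of 0.256. Cacna2d1 and Cacna1s, subunits of the voltage sensor, had differences of 0.52 and 0.53. Scn4a, the muscle sodium channel, fell in males by 0.56 and had 0.24, not called, in females. The other called members were Jph1, which holds the membranes of the triad together (0.29), the store-calcium sensor Stim1 (0.50), the chloride channel Clcn1 (0.39), Camk2b and Atp2a1. Of 20 neuromuscular junction genes, 4 (20%) had a called difference, all positive. They included Hdac4, a repressor of activity-dependent genes (0.95), Musk, the agrin receptor kinase (0.87), and the receptor clustering protein Rapsn (0.56). Of 13 fast-fibre markers, 4 (30.8%) were positive and 0 negative, including the fast alpha-actinin Actn3 (0.61) and the fast troponin T Tnnt3 (0.27). Of 11 slow-fibre markers, Myl2, the slow regulatory light chain, was the 1 called, with a difference of -0.50 and a called male response of 0.61.

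Genes of the extracellular matrix fell in female runners and most had no called male response. Of 35 collagen chain and matrix genes, 20 fell and 0 rose in females, 4 rose and 0 fell in males, and the difference was negative in all 35 and called in 23. The median response was -0.531 in females and 0.34 in males. The called share was 65.7%, beside 12% of all genes tested. Dcn, the collagen-binding proteoglycan decorin, was at 1195 to 1819 CPM (median 1480) in locked and 698 to 1028 (median 827) in running females without overlap, and at 708 to 1102 (median 880) in locked and 706 to 1566 (median 1133) in running males. Col3a1, the fibrillar collagen of soft tissue, was at 285 to 578 CPM (median 319) in locked and 141 to 316 (median 191) in running females, and at 95.9 to 206 (median 182) and 155 to 272 (median 228) in the males. Locked females had the highest median of the 4 groups for both genes, and the other groups overlapped each other. The difference was -1.16 (SE 0.18) for Dcn and -1.25 (SE 0.23) for Col3a1, and it was -1.09 for Mmp2, a matrix-degrading protease. Fbn1, the main protein of microfibrils, and Col6a3, a chain of microfibrillar collagen, were the members called in both sexes with opposite signs, with responses of -0.53 and 0.62 for Fbn1 and of -0.42 and 0.41 for Col6a3.

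Fibroblast and macrophage markers fell in females with the matrix genes, whereas 0 of 10 endothelial markers had a called difference, with a median of 0.0133. Schwann cell markers had 0 called among 7, but all 7 differences were negative, with a median of -0.324. All 10 fibroblast and fibro-adipogenic markers had a called negative difference, 9 of them fell in females and 1 rose in males, and 4 of the 10 are also in the matrix list (Dcn, Col3a1, Col1a1 and Lum). Their summed level was 3099 to 4786 CPM in locked females, 2014 to 2875 in running females, 1675 to 2585 in locked males and 1807 to 3275 in running males, so that locked females stood above all other groups apart from the highest running males. Of 10 macrophage markers, 7 (70%, beside 12% of all genes tested) had a called negative difference, 6 fell in females and 0 were called in males. Their sum was 134 to 266 CPM in locked and 75.0 to 182 in running females, and 53.7 to 113 in locked and 57.6 to 151 in running males. Lyz2, the lysozyme of myeloid cells, had a difference of -1.61, C1qa, a complement chain made by macrophages, -1.35, and Csf1r, their growth factor receptor, -1.07. In bulk muscle, fewer cells of a type and less RNA per cell cannot be told apart, and the part of these cells in the matrix result was not tested by cell counting.

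Other lists of blood, immune and fat genes shared this sign. Of 6 erythroid genes the 4 globin genes tested, Hbb-bs, Hbb-bt, Hba-a1 and Hba-a2, all fell in females and had called differences between -1.39 and -1.11, although these near-identical copies can split reads. Of 6 leukocyte markers 3 were called, including the pan-leukocyte phosphatase Ptprc (-1.04). Of 25 interferon-stimulated genes 8 were called negative and 0 positive, with a median difference of -0.611, among them the antigen-presentation chain B2m (-0.63), the guanylate-binding proteins Gbp2 (-1.04) and Gbp3 (-1.41) and the ubiquitin-like Isg15 (-1.98). Gbp3 and Isg15 rose in males, by 1.03 and 1.18, and their female responses were not called. Serping1, the inhibitor of complement C1, had responses of -0.64 in females and 0.34, not called, in males, and the complement protease gene C1s1 had -0.76 and 0.38, not called. Pros1, the anticoagulant protein S, fell in females by 0.79. Adipocyte markers fell in females for 9 of 12, but only 3 differences were called, in Fabp4 (-0.59), Cfd (-1.44) and Retn (-1.27). Called shares were 66.7% for erythroid, 50% for leukocyte, 32% for interferon and 25% for adipocyte genes, beside 12% of all genes tested. Hepatocyte markers had 0 called differences among 22 and 6 called falls in females, and their sum ranged from 150 to 4387 CPM in locked females, where 1 library lay far above the rest, and from 42.5 to 245 in running females.

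Of 30 muscle mass and atrophy genes, 5 had a positive and 3 a negative called difference, a share of 26.7% beside 12% of all genes tested. Igf1, the growth factor made by muscle and its stromal cells, was at 60.6 to 99.9 CPM in locked and 40.0 to 59.1 in running females without overlap, and at 32.4 to 62.4 in locked and 46.4 to 73.5 in running males. Its difference was -1.08 (SE 0.18), with -0.70 in females and 0.38, not called, in males. Mstn, the inhibitor of muscle growth myostatin, went the other way, with 0.35 in females and -0.26, not called, in males, and Acvr2b, its receptor, had 0.60 and -0.11, not called. All 3 belong to that list. In the stress lists the called share was near or below that of all genes. Of 28 heat shock and chaperone genes 1 was positive and 2 negative, and of 32 antioxidant and selenoprotein genes 4 were negative, including the selenium carrier Selenop (-0.76) and Prdx2 (-0.35), a peroxidase that rose in males by 0.39. Klf4 was the 1 immediate early gene of 22 called (-0.79), Mt2, a metal-binding protein, the 1 of 21 glucocorticoid-responsive genes (-1.25), and Pdia3, a protein folding enzyme, the 1 of 25 unfolded protein and integrated stress response genes (-0.55).

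Fewer genes responded in males with no called female response, and most of the leading ones fell. Eif4ebp2, which restrains cap-dependent translation, was at 112 to 186 CPM (median 125) in locked and 50.3 to 85.3 (median 69.6) in running males, and at 70.0 to 104 (median 84.4) in locked and 68.8 to 111 (median 79.3) in running females. The male ranges did not overlap, the female ranges overlapped almost fully, and locked males were above every other group. Its difference was 1.01 (SE 0.17), with 0.01 in females and -0.998 in males. Trim54, a ubiquitin ligase of the sarcomere, fell in males by 0.38, from 244 to 357 CPM down to 190 to 244. Wdtc1, a regulator of fat storage, fell in males by 0.52, Atxn7l2 by 0.65, Tsc22d4 by 0.48, Kcmf1 by 0.32, Ankrd40 by 0.29 and Dcaf8 by 0.39, and Tmem256 rose by 0.36. The differences of all these genes were called, with female responses between -0.14 and 0.44.

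Called wheel responses of core clock and clock output genes were mostly falls in males. Of 22 core clock and clock output genes, 7 fell and 0 rose in males, and 1 rose and 0 fell in females. The difference was called for 5 (22.7%, beside 12% of all genes tested), all positive. The median difference of the list was 0.28. Hlf, a transcription factor driven by the clock, was at 25.02 to 40.7 CPM (median 32.6) in locked and 13.9 to 21.3 (median 18.3) in running males without overlap, and at 13.2 to 28.1 (median 15.9) and 9.16 to 26.5 (median 17.2) in the females, which overlapped. Its difference was 0.87 (SE 0.24, adjusted p = 0.01454 in limma), with -0.89 in males and -0.02 in females. Rora, a nuclear receptor of the clock, had a difference of 0.51, Usp2, a clock-driven deubiquitinase, 0.66, the kinase Csnk1e 0.34, and the repressor Cry1 0.57, the last from a called female rise of 0.36. Per2 and Ciart fell in males, by 1.35 and 1.44, but their differences were not called. The hour of sampling is not given in the sources used here.

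**Figure D3:**
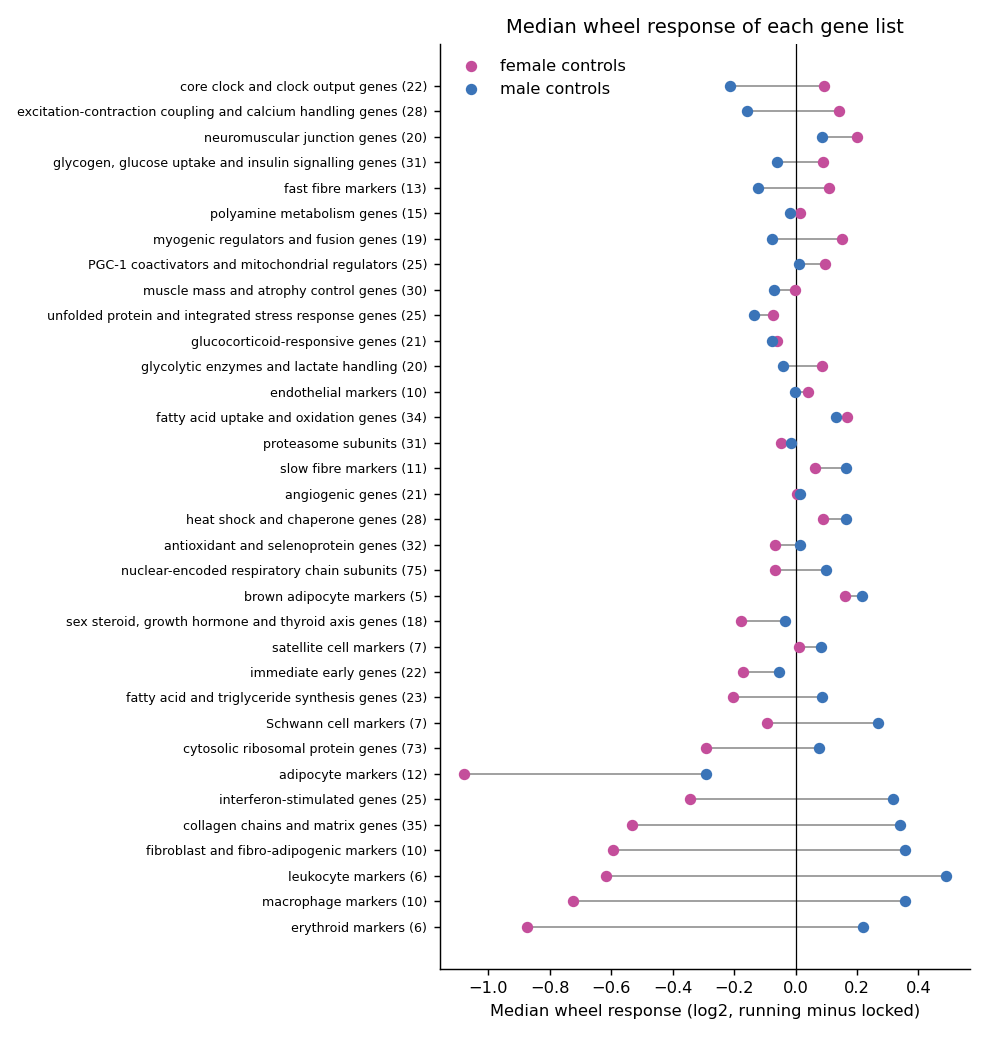
Median wheel response of each gene list in female (pink) and male (blue) controls, as log2 running minus locked on the horizontal axis, with the number of genes tested in parentheses and lists sorted by their median difference. Matrix, fibroblast, macrophage, leukocyte, erythroid and interferon lists have female medians below 0 and male medians above 0, and clock and excitation-contraction coupling lists the reverse, and the hepatocyte list is not drawn because its medians are far outside the others.

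The remaining lists are read against the 12% of all genes tested that had a called difference. The share was 26.3% in the myogenic, 20% in the glycolytic and 16.1% in the glycogen and glucose list, 12.9% among proteasome subunits, 12% among PGC-1 genes and lower or resting on 2 genes or fewer in the others. Of 31 genes of glycogen, glucose uptake and insulin signalling 4 were positive and 1 negative, led by Phkg1, with Pygm, muscle glycogen phosphorylase (0.51), Pdpk1, an insulin signalling kinase (0.38), Ppp1r3c, a glycogen-targeting phosphatase subunit (0.38), and Pdhb of pyruvate dehydrogenase (-0.42). Gys1, glycogen synthase, rose in both sexes, by 0.49 in females and 0.46 in males. Of 20 glycolytic genes 4 were positive, including Pfkfb3 (0.73), Hk2 (0.38) and Gpi1 (0.35), and of 25 PGC-1 coactivators and mitochondrial regulators 3 were positive, namely the kinase subunit Prkaa2 (0.49), the coactivator Ppargc1b (0.39) and the fusion protein Mfn2 (0.39). Of 19 myogenic regulators 4 were positive and 1 negative, among them Mef2a (0.39) and Myod1 (0.61). Of 31 proteasome subunits 3 were positive and 1 negative, with Psmd2 at 0.61. Of 23 fatty acid and triglyceride synthesis genes 1 was positive, Lpin1 (0.45), and 1 negative, Elovl5 (-0.54). Vegfa (0.36) was the 1 of 21 angiogenic genes called, Igf1 (difference given above) and Hsd17b11 (-0.68) the 2 of 18 sex steroid, growth hormone and thyroid axis genes, and Chodl (-0.67) the 1 of 7 satellite cell markers. Among 15 polyamine genes, 10 endothelial, 7 Schwann cell and 5 brown adipocyte markers 0 were called by limma. The calls for Vegfa, Mt2, Retn, Ptprc and Hbb-bt were each lost in 15 to 22 of the 28 fits that left out 1 mouse. Other called list members, which also count in the numbers above, were as easily lost. Their calls were lost in 18 fits for Pfkm, 17 for Chrnb1, 16 for Hsp90ab1, 15 for Id3, 12 for Coro1a and 11 for Six4. The shares of short lists therefore depend on single mice.

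The largest differences on the log2 scale came from genes with few counts. On the positive side Gm43946 (3.58, SE 0.85), 5830444F18Rik (3.33, SE 0.91) and Gm37949 (2.92, SE 0.76) are intronic TEC loci with group medians between 0.218 and 1.56 CPM. Negative differences of this size were found in immune genes, with Ccl8, a chemokine, at -2.96 (SE 0.98), Ms4a6d at -2.81 (SE 0.71), the lectin Cd209a at -2.81 (SE 0.83), the inflammasome adaptor Pycard at -2.40 (SE 0.55) and the ficolin gene Fcna at -2.20 (SE 0.56). Of these 5 immune genes, Pycard and Fcna had a called female fall, and the male responses were not called. Zero counts occurred in at least 1 mouse for several of these loci, and their fold changes depend on the model's offset. The call for Ccl8 was lost in 21 of the 28 fits that left out 1 mouse.

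Features of whole libraries moved with the same groups. The 28 libraries held 6639782 to 21633091 counts, 28 of 28 matched the sex on their label by sex-linked genes, and fast-fibre markers summed to 93810 CPM or more in every mouse. Running males had the deepest libraries, at 12792831 to 21633091 counts (median 14855281). The medians were 11205977 in locked females, 10129311 in running females and 10425872 in locked males. Gm42418, a non-coding locus that overlaps ribosomal RNA sequence, took 9.59 to 12.5% of counts in locked and 11.5 to 13.1% in running females, and 9.41 to 11.4% in locked and 6.51 to 9.78% in running males. TEC loci took 0.0368 to 0.0522% in locked and 0.0667 to 0.0791% in running females, and 0.0535 to 0.0742% and 0.0495 to 0.0660% in the males. The mitochondrial share of counts was 25.6 to 29.97% in locked and 20.5 to 24.5% in running females without overlap, and 25.6 to 27.8% in locked and 26.2 to 30.6% in running males. Malat1, a nuclear non-coding RNA, took 0.143 to 0.168% in locked and 0.235 to 0.281% in running females, and 0.189 to 0.279% and 0.160 to 0.329% in the males. These shares moved beside the respiratory chain and intronic results above, and their part in them was not tested. The differences also followed transcript length, called or not. The 11767 protein-coding genes were ordered by longest transcript into 5 groups of nearly equal size. From shortest to longest, the median difference was -0.117, -0.0508, -0.00175, 0.0169 and 0.107, with a Spearman rho over genes of 0.195. Called differences were 43 positive and 250 negative in the shortest group, and 275 positive and 86 negative in the longest. The rho of length was 0.242 with the female response and -0.0264 with the male response. The part of length in the list results was not tested.

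When a library feature was added to the model as a covariate, a choice made after the data were seen, fewer genes had a called difference. The count was 16 with the Gm42418 share, 14 with the mean log2 level of fibroblast markers and 21 with that of macrophage markers. It was 1533 without a covariate, and each of these features itself differs with sex and wheel. The genes called under all 3 of these models numbered 8: Eef1a2, Phkg1, Luc7l2, Malat1, Gm43185, Gm43063, Gm42432 and 9530086O07Rik. With the fibroblast covariate the matrix genes had a median difference of 0.00991, and with the Gm42418 covariate one of -0.433. The fibroblast covariate includes Dcn, Col3a1, Col1a1 and Lum, which are also matrix genes. The matrix median under it follows in part from this overlap and does not test cell make-up. Called ribosomal protein genes went from 40 to 0, 0 and 1 with the Gm42418, fibroblast and macrophage covariates, while their median difference was -0.213, -0.287 and -0.255. Called respiratory chain genes went from 30 to 0 and called excitation-contraction coupling genes from 9 to 0 under each of the 3, as did the 5 clock and 23 matrix calls. The part of RNA composition, library handling or cell make-up in the differences was not tested.

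**Figure D4:**
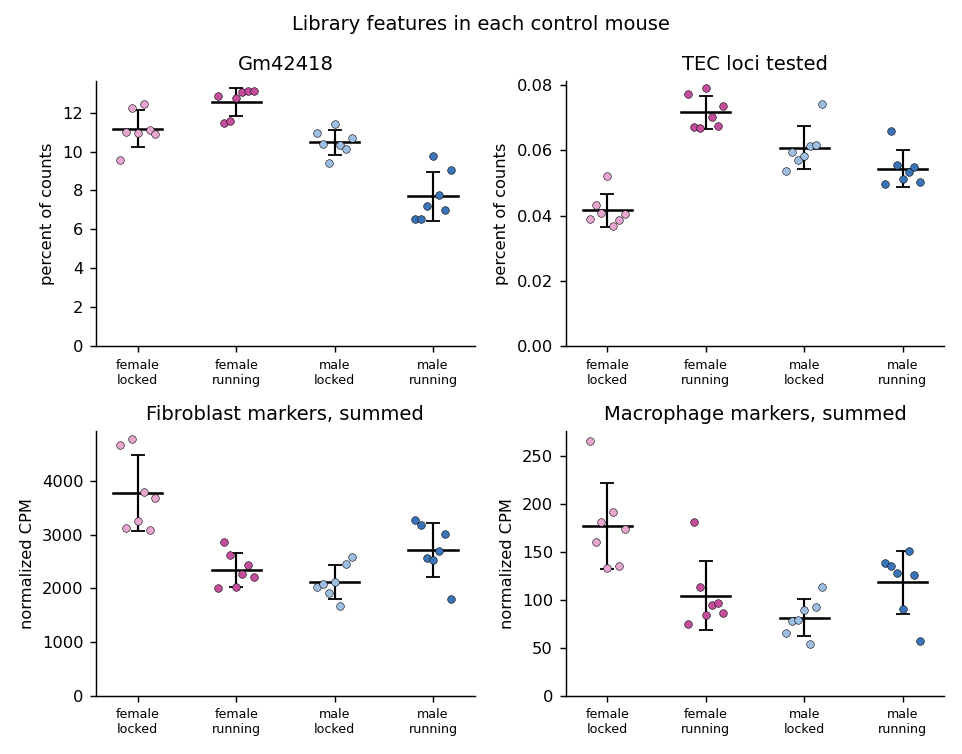
Share of counts from Gm42418 and from TEC loci (percent) and summed fibroblast and macrophage markers (normalized CPM) in each control mouse by group, with points for mice, bars for means and error bars for the SD (n = 7 a group). By group mean Gm42418 is lowest in running males, TEC loci are lowest in locked females, and both marker sums are highest in locked females.

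The differences in wheel response went with a narrower gap between the sexes in runners. The gap between females and males was smaller with a running than with a locked wheel for 75.5% of the 1533 genes and for 60.8% of all genes tested. Its median size among the 1533 was 0.472 in locked and 0.205 in running mice. Sex differences were called for 3306 autosomal genes in locked and for 1271 in running controls. These gaps use the same mice as the wheel responses and are another view of the same values.

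The same difference of differences was computed in the 28 mice labelled HuR m-/-, which share no animal with the controls. Elavl1 was at 27.8 to 61.9 CPM over all controls and at 37.9 to 69.8 CPM over the mice labelled HuR m-/-, a log2 difference of 0.129 (95% interval 0.0124 to 0.245, adjusted p = 0.15 in limma), so the summed Elavl1 count was not lower under that label. The deleted part of the gene cannot be read from a count per gene. The study itself reports lower Elavl1 mRNA in the gastrocnemius of HuR m-/- mice than in controls, and lists Elavl1 among its qPCR primers. In those mice 73 of 13163 autosomal genes had a called difference (0.555%), 42 positive and 31 negative, with 1775 at an unadjusted p under 0.05. That count of 73 ranged from 11 (without male runner MHE 2) to 180 (without locked female FH 34) when 1 mouse was left out. Of the 1531 control genes also tested there, 1366 (89.2%) had the same sign, against 65.3% of all genes tested in both. Across the 1531 genes Pearson's r was 0.748, over genes and not replicates. Median differences were 0.262 for positive and -0.276 for negative genes, against 0.577 and -0.700 in the controls. The genes were selected for a called difference in the controls, which by itself favours larger values there. A change of size with genotype cannot be read from these medians.

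Of the genes crossing between the control sexes, 90 of 93 had the same sign in the mice labelled HuR m-/-. Phkg1 was called there as well, at 0.58 (adjusted p = 0.02425 in limma), as were Camk2b (0.70), Rps15a (-0.58) and Rpl31 (-0.42). In all, 40 genes were called in both genotypes, each with the same sign, which is 54.8% of the calls in the mice labelled HuR m-/- and 2.61% of those in controls. All 35 matrix genes were lower there too, with a median of -0.392 and 0 called, and the ribosomal protein genes had a median of -0.284 with 8 called. The clock list had a median of only 0.0287, the interferon list -0.076 and the respiratory chain list -0.0283, each with values closer to 0 than in controls. The difference between the genotypes was called for 0 genes by limma and 0 by edgeR, with 1031 at an unadjusted p under 0.05 in limma, so none of these contrasts between the genotypes passed a test.

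**Figure D5:**
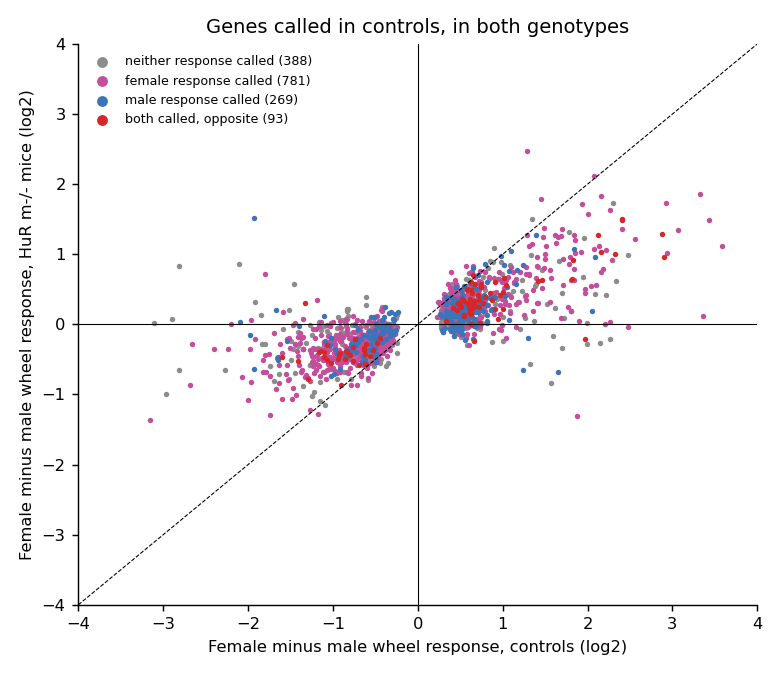
Female minus male wheel response (log2) of the genes called in controls, with the control value on the horizontal axis and the value in mice labelled HuR m-/- on the vertical axis, coloured by the class of control response, and with a dashed line of equality. Of 1531 genes 1366 have equal sign on both axes. Most lie nearer to 0 on the vertical axis than on the horizontal one, which selection of the genes in controls by itself favours.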

How the data were processed

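Gastrocnemius RNA was sequenced from 56 mice, and the 28 controls are analysed here. The authors deposited 1 table of raw read counts per gene, which the values bear out as whole numbers. Per the labels a QuantSeq 3′ mRNA kit was used, whereas the methods of the study name a stranded total RNA kit with ribosomal RNA depletion. Submitters' processing notes name R 4.0.3, edgeR 3.38.4 and GRCm38. The aligner and the strand setting of the counting are not given in the sources used here. The labels also describe the age at sampling as 5 months, after 10 weeks of wheel access.

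Counts were scaled by TMM and filtered with filterByExpr over 4 groups (edgeR 4.0.16), weighted with voom and fitted with limma 3.58.1 (R 4.3.3), with 1 mean for each group. P-values were adjusted by Benjamini-Hochberg over 13286 genes, and the 12817 autosomal ones are reported. Gene positions and types are from GENCODE M21, which matched 15503 of 15539 genes. On simulated counts for this comparison over 13367 genes, 115 of 200 changed genes were recovered (27.3% at 1.5-fold, 58.6% at 2-fold and 87.5% at 3-fold), with 10 false among 125 calls. Genes were simulated independently around 1 mean shared by the 4 groups, with changes in running females only. No library feature shared by many genes was simulated, so the false calls hold for that setting only. Labels do not say that mice of a group came from separate cages or litters, so p-values measure the spread between these mice. Depth of 6639782 to 21633091 counts a mouse sets the precision for genes of few counts.

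Named genes averaged 10 counts or more per control mouse and were among the 10 largest called differences of each sign, the 10 smallest p among genes called oppositely in both sexes, the 10 smallest p among genes called in females only or in males only, or the 5 smallest p in each list. Others are named for their list or position and were chosen after their values were seen, and 1 gene that the rule selects is not reported here. Genes named outside the rule are, for example, Myh1, Myh2, Gys1, Per2, Ciart, Map4, Ampd1, Nexn, Pdzrn3, Jph1, Stim1, Clcn1, Cacna1s, Fbn1, Col6a3, Col1a1, Malat1, Rps19, Rpl26, Rpl21, Rnase4, Mrc2 and Thy1. Members and the 23 pathway and 12 marker lists were chosen with earlier results of these data known. Alternatives were other tests, scalings, filters, covariates and leaving out each mouse.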

Additional observations from a re-analysis of the deposited data

Results flagged for a closer look

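The wheel response differed between the sexes, by limma's test of the difference itself, for 1533 autosomal genes, and 47 of them named by the rule for leading genes are given here with the female minus male response on the log2 scale. The positive values of largest size were in intronic or unspliced loci: 3.58 for Gm43946, 3.33 for 5830444F18Rik, 2.92 for Gm37949, 2.90 for 5830487J09Rik, 2.87 for 9530086O07Rik, 2.56 for D430013B06Rik, 2.48 for Gm45828, 2.41 for Gm37014, 2.40 for Gm37809 and 2.40 for Gm43063. The negative ones were -2.96 for Ccl8, -2.81 for Ms4a6d, -2.81 for Cd209a, -2.40 for Pycard, -2.28 for Omd, -2.24 for Mycn, -2.20 for Fcna, -2.10 for Kcp, -2.10 for Lrrc55 and -2.07 for Ms4a6c. Leaving out 1 mouse at a time lost the call for Ccl8 in 21, Omd in 19, Lrrc55 in 9, Kcp in 3, Mycn in 3 and Cd209a in 2 of 28 fits.

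Among genes called in both sexes with opposite signs, the difference was 2.16 for Gm42432, 2.33 for Gm43185, 0.75 for Phkg1, 2.12 for Gm42790, 0.79 for Luc7l2, 1.04 for Gm15179, 0.85 for Fry and 0.61 for Eef1a2. Among genes with only the female response called it was 0.71 for Plec, 1.04 for Dgkz, 0.96 for Ryr1, 0.69 for Ubr4, -0.98 for Serping1, 0.88 for Adcy9, -1.05 for Pros1, -1.15 for C1s1 and -1.16 for Dcn. Among genes with only the male response called it was 1.01 for Eif4ebp2, 0.68 for Gm42418, 0.58 for Trim54, 0.74 for Wdtc1, 1.10 for Atxn7l2, 0.70 for Tsc22d4, 0.48 for Kcmf1, 0.46 for Ankrd40, 0.52 for Dcaf8 and -0.50 for Tmem256.

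Of 236 groups of 7 mice checked with Dixon's test, 22 (9.32%) had 1 mouse far from the other 6, against about 1 in 20 by chance, and the values here are its gap to the nearest mouse divided by the group's range. In running females, FCE 1 was high for Gm43946 (0.841), D430013B06Rik (0.576), Gm42432 (0.568) and Ubr4 (0.666), FCE 25 was high for Ms4a6d (0.825) and for the summed macrophage markers (0.635), and FCE 28 was low in its share of mt-Rnr2 (0.704). In locked females, FC 18 was high for Luc7l2 (0.595), Plec (0.603) and the share of TEC loci (0.579), FC 12 was high for Lrrc55 (0.657) and FC 20 was low for Dgkz (0.601). In locked males, MC 31 was high for Gm37014 (0.65) and the share of TEC loci (0.602), MC 29 for Ms4a6d (0.587), MC 20 for Ubr4 (0.59) and MC 17 for the share of mitochondrial counts (0.57), while MC 19 was low for Dcaf8 (0.573). In running males, MCE 13 was high for Gm43185 (0.709), the share of TEC loci (0.638) and the TMM factor (0.622), and MCE 5 was high for Wdtc1 (0.607).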

How the results depend on the processing

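The count of 1533 genes with a called difference was between 1207 and 1701 under other tests, scalings, filters, quality weights and a fit with all 56 mice. It was 611 with adipocyte markers as a covariate. Genes called oppositely in both sexes (93) numbered 157 with DESeq2, 146 with quality weights, 60 with all 56 mice, 16 with the adipocyte and 46 with the hepatocyte covariate. Male genes numbered 989 with quality weights, and female genes 148 with the adipocyte and 798 with the hepatocyte covariate. In the mice labelled HuR m-/- the count was 218 with DESeq2 and 185 in a fit with all 56 mice. Leaving out 1 mouse gave 1216 to 1747 genes for the difference, 1036 to 1712 for females, 343 to 944 for males, 39 to 176 for opposite genes and 11 to 180 for the mice labelled HuR m-/-. Of 143 named genes with a called difference, 143 kept their sign and 77 their call in all alternatives planned in advance other than the replicate block.

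Covariates chosen after the data were seen gave lower counts, except for males with the contrast of long against short transcripts. For the difference, females, males and opposite genes respectively, the Gm42418 share gave 16, 819, 2 and 0, fibroblast markers 14, 81, 57 and 5, and macrophage markers 21, 162, 209 and 6. The contrast of long against short transcripts gave 173 for the difference, 52 for females, 692 for males and 9 for opposite genes. Without a covariate, 1520 female and 653 male genes were called. The difference changed sign for Gm42418 with its own share (-0.0536), for Csf1r with the Gm42418 share (0.42), fibroblast markers (0.28) and macrophage markers (0.18), and for Mrc1 with fibroblast (0.51) and macrophage markers (0.0811). The cause was not tested.

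A fit with the replicate number as a block used 16 mice and called 151 genes, of which 139 were among the 1533. Of 143 named genes 42 kept their call in that fit and 101 lost it, with 0 changes of sign. Fewer mice entered it. Correlations over 8 same-numbered pairs were -0.178 to 0.161, which cannot show whether the numbers mark shared litters, cages or handling. Genes of few counts are limited by depth: with counts thinned to 6639782 a mouse, 1243 genes were called.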
